A study of Caenorhabditis elegans with 2 samples.

Results

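The deposited pooled list of LIN-39 ChIP-seq regions holds 30000 ranked regions, of which the authors' set of optimal peaks takes up only the strong end, and 2625 regions (8.75% of the list) lie just below that set. These weaker regions were selected on the authors' pooled signal, from 30 to below 50, and on overlapping no optimal peak by even 1 bp on the ce11 build. LIN-39 was profiled by transcription factor chromatin immunoprecipitation and sequencing in whole first-stage (L1) larvae, males and females pooled, of Caenorhabditis elegans strain OP18. This strain carries the unc-119(ed3) III allele and wgIs18, an integrated transgene of lin-39 fused to eGFP. The study had 1 group of 2 biological replicates, so no condition could be compared, and whole larvae mix all cell types. The control and the underlying reads were not analysed here, the depth behind each region is unknown, and the larvae's age within the stage is given as unknown.

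LIN-39 is the Hox factor of the worm's mid-body, known for its roles in the cells that form the vulva, in motor neurons of the ventral cord and in the migrating Q neuroblasts. Hox proteins bind short AT-rich sites alone and longer composite sites together with TALE homeodomain partners of the PBC class, such as CEH-20. In ChIP-seq a ranked list runs from strong enrichment to background without a natural break, and a cutoff on agreement between replicates is commonly used to set a limit. Regions near that cutoff can hold weaker binding, binding in few cells, or background.

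The sequences under the strongest weaker regions are shown first, as windows of 60 bp to either side of the summit, from the plus strand of the WBcel235 (ce11) RefSeq genome. Regions were named for their nearest protein-coding gene start. The first 4 are the strongest weaker regions on chromosomes II to V and X, clear of UTRs, that had a match to the Hox-PBC composite motif TGATNNAT in this window, and capitals mark the match on either strand. They lie at II:221419-221539, X:11818951-11819071, IV:11114301-11114421 and II:8819662-8819782.
ubxn-3: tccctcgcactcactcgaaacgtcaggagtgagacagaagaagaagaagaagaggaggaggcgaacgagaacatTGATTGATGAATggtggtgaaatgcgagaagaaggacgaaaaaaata
C34E11.2: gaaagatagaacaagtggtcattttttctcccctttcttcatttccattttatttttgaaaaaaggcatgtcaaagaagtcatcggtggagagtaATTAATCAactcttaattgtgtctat
clc-9: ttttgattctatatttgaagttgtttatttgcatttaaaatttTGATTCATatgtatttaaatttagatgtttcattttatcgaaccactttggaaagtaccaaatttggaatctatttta
F46C5.10: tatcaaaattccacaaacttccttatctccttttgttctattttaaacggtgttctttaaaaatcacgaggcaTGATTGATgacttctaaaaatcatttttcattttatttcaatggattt

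The ubxn-3 window held 2 overlapping matches inside a purine-rich stretch, the first of them 17 bp from the summit, and its summit lay 812 bp upstream of the gene start, with a pooled signal of 49.7. The other matches lay 38, 14 and 16 bp from their summits. The F46C5.10 summit was 694 bp upstream of its start, the clc-9 summit was in an intron 1420 bp downstream of the nearest start, and the C34E11.2 summit was intergenic, 4261 bp upstream of the nearest start. The windows ranged in GC content from 21.5% at clc-9 to 45.5% at ubxn-3.

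The next 3 windows belong to the strongest weaker regions on the same chromosomes with no composite match. They lie at II:5874159-5874279, II:6489913-6490033 and X:13716406-13716526, and capitals mark the only match of these windows to TTTCNNTTT.
tex-2: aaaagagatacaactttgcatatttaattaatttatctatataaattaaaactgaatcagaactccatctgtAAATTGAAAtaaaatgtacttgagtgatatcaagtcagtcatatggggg
rsp-5: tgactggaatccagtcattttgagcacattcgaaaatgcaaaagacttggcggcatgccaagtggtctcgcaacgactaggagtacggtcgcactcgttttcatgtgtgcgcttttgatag
shc-3: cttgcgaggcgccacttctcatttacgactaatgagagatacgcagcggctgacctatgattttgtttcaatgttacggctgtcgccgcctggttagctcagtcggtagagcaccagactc

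These windows show how mixed the group is. The tex-2 window is AT-rich (26.4% GC) and also holds the homeodomain core TAATTA, which is not capitalised. The rsp-5 window (47.9% GC) lies 192 bp upstream of a splicing factor gene. The shc-3 summit lay 27 bp from the annotated start of a tRNA gene (52.1% GC). The last 3 windows carry the GA repeat GAGAGAG, whose share differs from that of the optimal peaks by more points than that of any of the other motifs sought, and they were chosen after their values were seen. They lie at V:8662333-8662453, X:12517419-12517539 and X:4962402-4962522, and capitals mark the repeat or its reverse complement.
ZC190.4: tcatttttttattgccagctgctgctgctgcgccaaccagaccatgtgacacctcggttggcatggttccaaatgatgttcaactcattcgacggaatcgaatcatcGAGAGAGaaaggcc
scd-1: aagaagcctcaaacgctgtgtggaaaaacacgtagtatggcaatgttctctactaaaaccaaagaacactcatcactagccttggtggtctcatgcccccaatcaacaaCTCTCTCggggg
act-4: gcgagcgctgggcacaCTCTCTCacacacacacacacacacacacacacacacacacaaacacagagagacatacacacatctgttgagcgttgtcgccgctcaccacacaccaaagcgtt

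The GA repeat lay 50 bp from the summit nearest ZC190.4, 52 bp from that nearest scd-1 and 41 bp from that nearest act-4, the last beside a long CA repeat. All 3 windows were GC-rich for this genome, at 48.8%, 47.1% and 53.7%, against 35.4% over the genome.

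The weaker regions took up ranks 1490 to 4141 of the pooled list and were 1.76 times as many as the 1488 optimal peaks. Their median signal was 35.3, against 81.3 for the optimal peaks, and 1967 of them lay between 30 and 40 and 658 between 40 and 50. These values chose the members and are given as a description. The scale of the signal is not stated by the authors. Nearly all (2624) were 340 bp wide, and 120 held the largest deposited −log10 q of the list, 3.51, as did all 1488 optimal peaks. At the upper end, the last regions inside had signals of 49.998 and 49.988, both on chromosome II, and the first outside had 50.027, an optimal peak, and 50.024, at X:6220004-6220343, which is not in the optimal set and is not counted among the weaker regions. At the lower end, the last regions inside had 30.005 and 30.003 and the first outside 29.999 and 29.998. A further 27 regions in the same signal range overlapped an optimal peak and were left out; their own signals ran from 30.1 to 49.7, and the optimal peaks they touched had a median of 69.7. The regions with signal from 20 to below 30, 8665 in number, serve below as a second comparison set.

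**Figure D1:**
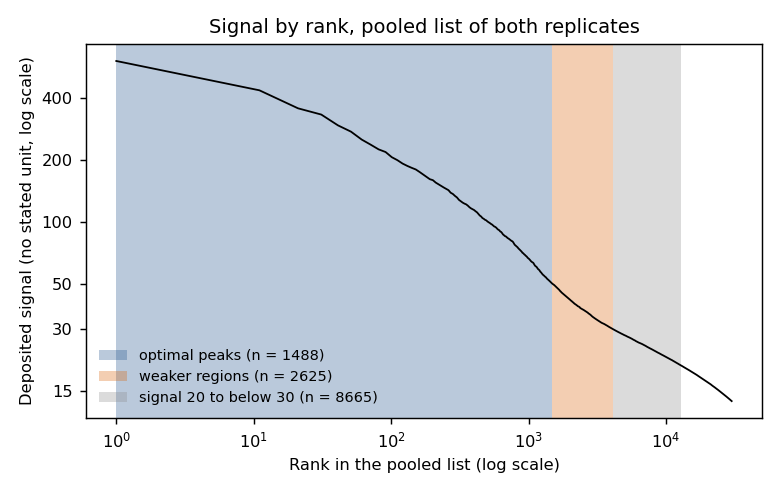
Deposited pooled signal (vertical axis, no stated unit, log scale) against rank in the pooled list (horizontal axis, log scale), with the rank ranges of the optimal peaks, the weaker regions and the regions with signal 20 to below 30 shaded. The curve passes from 49.998 to 30.003 across the 2625 weaker regions without a step.

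The weaker regions lay near gene starts less often than the optimal peaks. Of 2625 weaker summits, 1324 (50.4%, exact 95% interval 48.5 to 52.4) lay in a start window, defined as from 2000 bp before to 500 bp after the start of a protein-coding gene. Of the optimal summits 70.5% did so (68.1 to 72.8), of those with signal 20 to below 30 40.4%, and such windows cover 39.9% of the genome. The difference between weaker regions and optimal peaks was −20.1 points (weaker minus optimal; Fisher's exact test, two-sided, adjusted by Benjamini-Hochberg, p = 4.83e-36 over 7 kinds of place). Regions were treated as independent in this and the other tests, which compare region sets and not samples.

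Intergenic summits, meaning those outside protein-coding genes, made up 52.8% of the weaker regions and 74.4% of the optimal peaks (exact test, adjusted p = 1.87e-42). Introns held 36.04% of weaker summits against 19.96% of optimal ones (exact test, adjusted p = 1.19e-27), where introns make up 33.1% of the genome. Coding exons held 3.81% against 0.874% (exact test, adjusted p = 5.93e-09), still far under their 24.6% of the genome, and 3' UTRs held 4.38% against 1.48% (adjusted p = 2.38e-07). The shares in 5' UTRs were 2.90% and 3.16%, a difference that did not pass the test (exact test, adjusted p = 0.635) but did in the replicate 1 list alone (−1.36 points, adjusted p = 0.0166). In each class that passed, the weaker regions stood between the optimal peaks and the base share of the genome, except introns, where they exceeded it, and 3' UTRs, where they exceeded it by about 1 point (3.32% of bases).

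Within the start windows the weaker summits were spread farther from the start. The median position was 332 bp upstream for weaker and 194 bp upstream for optimal summits, and 85.4% against 93.5% lay on the upstream side. The first 500 bp upstream held 610 weaker summits, 23.2% of all of them, against 51.3% of the optimal and 11.3% of the next lower regions. Over all weaker regions, in or out of a window, the median distance to the nearest start was 1276 bp, against 359 bp for the optimal peaks and 1700 bp for the regions below. A weaker summit lay more than 5000 bp from any start in 357 cases (13.6%).

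**Figure D2:**
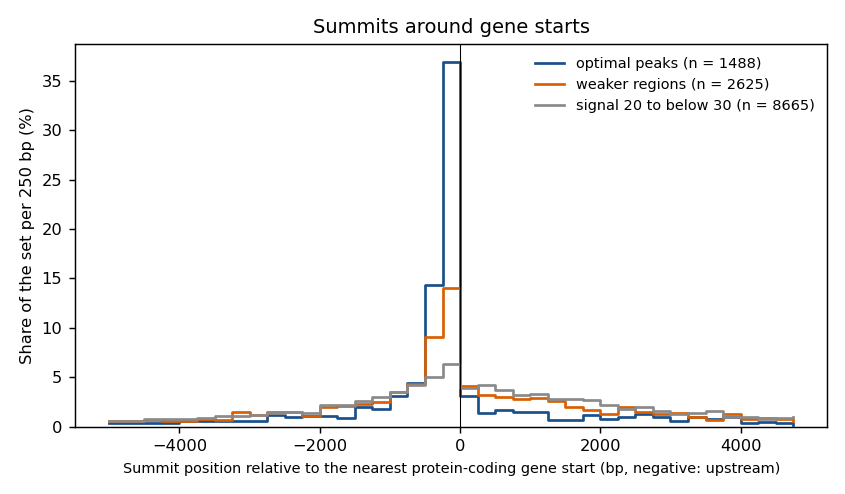
Share of each region set (vertical axis, % per 250 bp) by the position of the summit relative to the nearest protein-coding gene start (horizontal axis, bp, negative upstream), for optimal peaks, weaker regions and regions with signal 20 to below 30. All 3 sets have their highest bin just upstream of the start, and the weaker regions lie between the other sets there.

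The change in place ran gradually through the weaker regions. The start window held 45.1% of the 1276 regions with signal 30 to below 35, 49.9% of the 691 from 35, 60.1% of the 391 from 40 and 63.3% of the 267 from 45. Introns fell from 40.8% to 25.1% of summits along the same steps. Between the 658 stronger and the 1967 weaker members, parted at a signal of 40, the start-window share differed by 14.6 points (61.4% against 46.8%, Fisher's exact test, adjusted p = 7.93e-10 over 10 items), and coding exons held 1.67% against 4.52% (adjusted p = 0.00113). Across the cutoff itself no such difference passed a test. The 267 weaker regions with signal from 45 had a start-window share of 63.3%, and the 206 optimal peaks with signal below 55 had 63.6% (difference −0.296 points, Wald 95% interval −9.05 to 8.46; exact test, adjusted p = 1), and none of the 10 items compared passed. The steps and both of these comparisons were chosen after the data were seen.

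**Figure D3:**
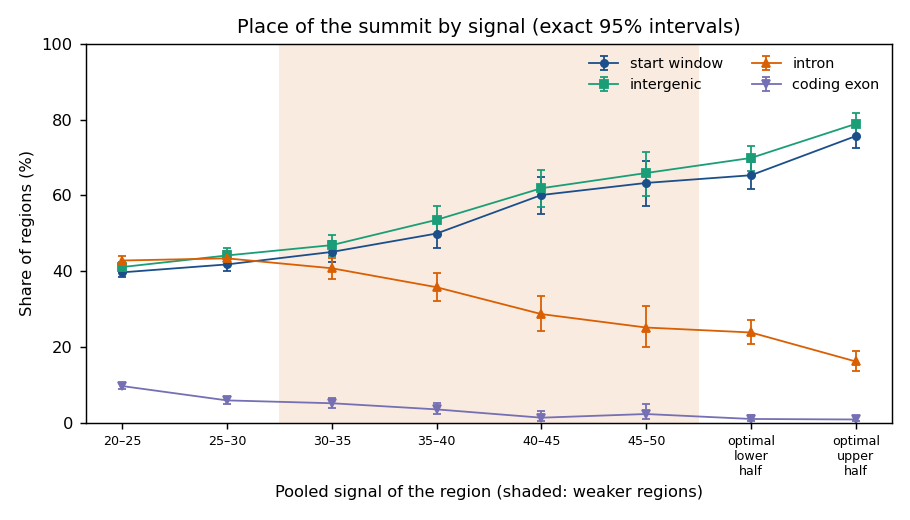
Share of regions (vertical axis, %, exact 95% intervals) whose summit lies in a start window, between genes, in an intron or in a coding exon, by pooled signal (horizontal axis), with the weaker regions shaded and the optimal peaks split at their median signal. The start-window share climbs from 45.1% to 63.3% across the weaker regions, while the intron share goes from 40.8% to 25.1%.

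The X chromosome did not follow this pattern. On X, 209 of 454 weaker summits (46.04%) and 109 of 237 optimal summits (45.99%) lay in a start window, a difference of 0.0437 points (Wald 95% interval −7.78 to 7.87; Fisher's exact p = 1). On the autosomes together the shares were 51.4% and 75.1% (p = 6.64e-44), and each autosome differed in the same direction, from −15.5 points on V to −29.0 points on IV (largest exact test, adjusted p = 0.000122, over 6 chromosomes). The odds ratios of X and of the autosomes differed (Breslow-Day chi-square test with Tarone's correction, p = 2.86e-09). In the lists of single replicates, with the same ranks, the X difference was −2.89 points in replicate 2 and −3.50 points in replicate 1, against −22.6 and −24.7 points on the autosomes. This comparison was chosen after the data were seen.

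Chromosome IV held 528 of the weaker regions (20.1%, against 16.4% of optimal peaks and 17.4% of the genome's length), the only chromosome whose share passed the test (Fisher's exact test, adjusted p = 0.0217 over 6). Chromosome I held 20.6% against 18.3% (exact test, adjusted p = 0.105) and V held 13.8% against 15.9% (adjusted p = 0.0888), where I makes up 15.03% and V 20.9% of the length. II differed by −2.54 points and III by −2.59 points (exact test, adjusted p = 0.0628 for each), and among the 1967 members with signal below 40 II also passed (−3.51 points, adjusted p = 0.00890). X held 17.3% against 15.9% (exact test, adjusted p = 0.278). The excess on IV was not seen in replicate 2 taken alone, where the share on IV of regions of the same ranks differed by −0.395 points from that of the list's strongest 1488 (Fisher's exact test, adjusted p = 0.762). The middle 50% of each chromosome's length, where genes of the autosomes are densest, held 51.5% of weaker and 54.8% of optimal summits (Fisher's exact p = 0.0439). This comparison was not among the planned ones, and its p was not adjusted. By chromosome the gap was largest on V (60.7% against 67.9%) and smallest on II (58.4% against 58.7%).

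Some weaker regions on IV lay near piRNA genes. piRNAs are the short germline RNAs that guide the Argonaute PRG-1, and in C. elegans most are encoded as small separate transcription units in large clusters on chromosome IV. A piRNA start lay within 300 bp of 159 weaker summits (6.06%), 148 of them on IV, against 2.15% of optimal peaks (Fisher's exact test, adjusted p = 1.45e-08 over 8 kinds of noncoding gene) and 6.69% of the next lower regions. The annotation holds 15363 piRNA genes, and 3.94% of the genome's bases and 20.4% of those of IV lie as close to one of their starts. On IV, 28.0% of weaker summits (148 of 528) and 21 of 244 optimal summits did, a contrast within IV that was not tested. The 148 on IV had a median GC content of 26.4% around the summit and 37 of them lay in a protein-coding start window, against 32.8% GC and 184 for the other 380 weaker regions on IV. Both replicate lists held 70.3% of the 148 and 82.4% of the 380. These comparisons were chosen after the data were seen, and the part that base composition plays in them was not tested.

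Of the other kinds of noncoding gene, 3 had starts less often at weaker regions than at optimal peaks. snoRNA genes, which guide RNA modification, had a start within 300 bp of 28 weaker summits (1.07% against 3.43%, exact test, adjusted p = 1.29e-06). snRNA genes, which encode spliceosomal RNAs, were near 8 (0.305% against 1.55%, adjusted p = 3.63e-05). tRNA genes stood near 81 weaker summits, 3.09% against 2.02% of optimal ones, which did not pass (adjusted p = 0.0721), and near 1.07% of the next lower regions. miRNA (0.343% against 0.538%), lincRNA and pseudogene starts did not pass (smallest exact test adjusted p = 0.371). Genes annotated as ncRNA of no further kind were near 8.80% against 13.8% (exact test, adjusted p = 1.83e-06).

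The sequences at weaker summits were AT-rich and graded in composition. The median GC content within 100 bp of the summit was 32.8% (quartiles 26.9 to 39.8), against 34.8% in flanks centred 1000 bp to the higher-coordinate side, so the set as a whole had fewer G and C at the summit than around it. Optimal summits went the other way, with 40.3% against 35.8% in their flanks. By signal the weaker median climbed from 30.3% in the lowest step to 32.3%, 36.3% and 38.8% in the highest, and it crossed the flanks on the way: from a signal of 40 the summits were the richer in G and C (36.3% against 35.3%, then 38.8% against 36.3%), as at optimal peaks. Bases soft-masked as repeats in the RefSeq genome made up on average 43.8% of the weaker windows, 29.98% of the optimal ones and 35.7% of the genome.

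The Hox-PBC composite motif TGATNNAT, where N is any base, was as frequent at weaker as at optimal summits within the error of the comparison. It stood within 100 bp of 438 weaker summits (16.7%, exact 95% interval 15.3 to 18.2) and of 17.003% of optimal ones (15.1 to 19.01; Fisher's exact test, adjusted p = 0.795 over 5 motifs). Of 498866 windows of the same 201 bp length tiled over the genome, 15.4% held it. Between weaker summits and their flanks its share differed by 0.648 points (16.7% against 16.04%, exact McNemar test, adjusted p = 0.552). At optimal summits it lay 1.81 points above that of their flanks (15.2%), which did not pass either (exact McNemar test, adjusted p = 0.197). Neither set was thus told apart from its flanks by this motif, so the near-equal shares cannot be read as a shared excess of Hox sites. Along the steps of signal the share at weaker summits was 16.1%, 17.7%, 17.6% and 15.4%. In the replicate 1 list alone, regions of the same ranks held it less often than the strongest 1488 (−2.90 points, Fisher's exact test, adjusted p = 0.0145), and in replicate 2 alone the difference was −0.0885 points. All motifs were sought on both strands. The rearranged control sequence TAGTNNAT was in 8.84% of weaker and 5.71% of optimal windows (exact test, adjusted p = 0.000638; 8.96% of genome windows).

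The homeodomain core TAATTA was in 11.2% of weaker and 7.80% of optimal windows (exact test, adjusted p = 0.000847; 9.32% of genome windows), and in 9.94% of the flanks of weaker summits, a difference of 1.22 points that did not pass (adjusted p = 0.269). The GA repeat GAGAGAG was the reverse case. It stood at 9.22% of weaker summits, at 18.01% of optimal ones (adjusted p = 4.26e-15), in 2.69% of genome windows and in 3.50% of weaker flanks (exact McNemar test against flanks, adjusted p = 4.81e-17). Its share went from 6.505% at the lowest step through 9.41% and 13.6% to 15.4% at the highest, and the 658 members with signal from 40 had it more often than the other 1967 (14.3% against 7.52%, exact test, adjusted p = 1.86e-06). The pyrimidine-rich TTTCNNTTT was in 33.6% of weaker windows, in 30.4% of optimal ones (exact test, adjusted p = 0.0469) and in 25.4% of weaker flanks (adjusted p = 2.42e-10; 24.9% of genome windows). In the replicate 2 list alone the differences of TAATTA (2.10 points), TTTCNNTTT (1.08 points) and TAGTNNAT (−0.123 points) no longer passed the exact test (adjusted p = 0.0700, 0.805 and 0.965), while that of the GA repeat was −10.5 points. Among members with signal from 40, none of these 3 differences from the optimal peaks passed the exact test either (adjusted p = 0.391, 0.453 and 0.113), and within 200 bp of the summit those of TAATTA (1.47 points, adjusted p = 0.347) and TAGTNNAT (2.32 points, adjusted p = 0.0800) did not. TTTCNNTTT also missed it among regions in both replicate lists (2.97 points, exact test, adjusted p = 0.0749). Against flanks, TAATTA passed within 200 bp (2.67 points, exact test, adjusted p = 0.0220), as did TAGTNNAT (−2.86 points, adjusted p = 0.0107). Matches of different motifs seldom overlapped: TGATNNAT and TAATTA did so in 9 weaker windows, TAATTA and TAGTNNAT in 5, TGATNNAT and TAGTNNAT in 2, and the GA repeat overlapped none of the others. GC content differs between the sets and was not matched, and its part in the motif shares was not tested.

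**Figure D4:**
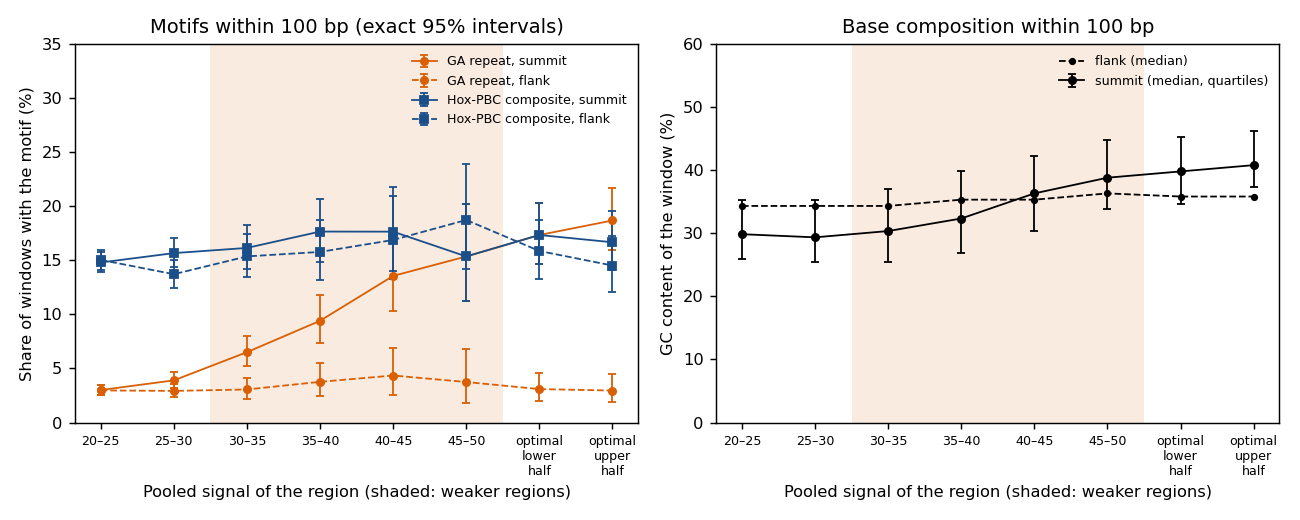
Left, share of windows (vertical axis, %, exact 95% intervals) within 100 bp of the summit or of a flank point 1000 bp away that hold the GA repeat or the Hox-PBC composite motif, by pooled signal; right, median GC content (vertical axis, %) of the same windows, with quartiles for summits. The GA repeat goes from 6.505% to 15.4% across the shaded weaker regions while its flank share stays from 3.06% to 4.35%, the composite motif stays from 15.4% to 17.7%, and GC content climbs from 30.3% to 38.8%.

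Most weaker regions had a counterpart in each replicate, but seldom at a matching rank. The replicate 1 list held a region overlapping 2514 of them (95.8%) and the replicate 2 list 2225 (84.8%). Both lists held 2123 (80.9%), replicate 1 alone 391, replicate 2 alone 102, and neither 9. Of the optimal peaks 99.5% were in both lists, and of the regions with signal 20 to below 30 43.9%. Support was 72.8%, 83.2%, 93.6% and 94.8% along the steps of signal. The pooled signal is built from the same replicates, so these shares follow from the choice of regions and were not tested; each replicate list is itself 30000 regions long, which makes an overlap easy to reach.

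Ranks in the replicates were less alike. Weaker regions had a median rank of 3708 in replicate 1 (quartiles 2190 to 7205) and 4751 in replicate 2 (2257 to 10557). Only 431 of them (16.4%) were among the top 4141 of both lists, where 92.3% of optimal peaks were. That depth is where the weaker regions end in the pooled list. This contrast follows from the choice of regions and was not tested. The pooled signal is built from these replicates, and the optimal set is labelled as thresholded by IDR, a score of agreement between replicates. Among the top 1488 of both lists there were 7 weaker regions, and 436 stood in the top 1488 of 1 list only. Ranked within the replicate's own list, the strongest regions that the other list lacked were those at uri-1 on chromosome I (pooled signal 48.5, rank 789 in replicate 1), and at X:17419954-17420293 near osm-11, which encodes a secreted Notch co-ligand (pooled signal 39.5, rank 563 in replicate 2).

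**Figure D5:**
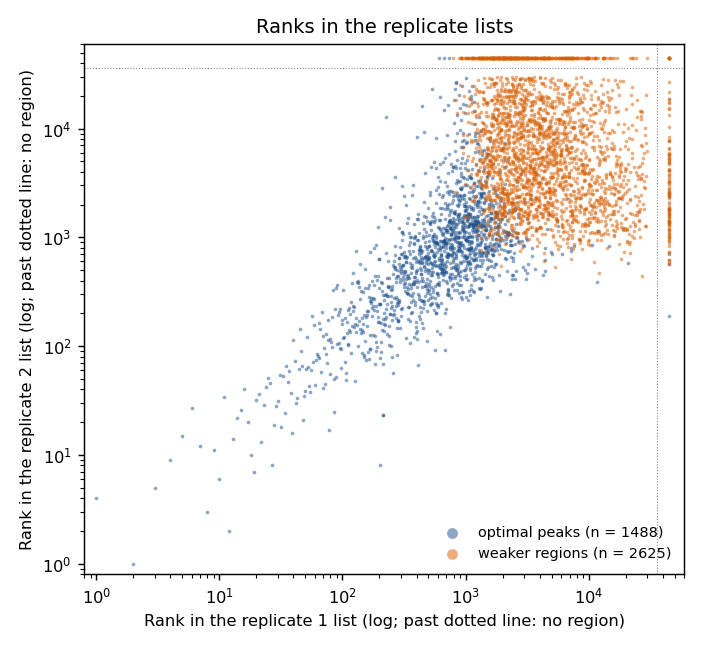
Rank of each region in the replicate 1 list (horizontal axis, log scale) against its rank in the replicate 2 list (vertical axis, log scale), for the 1488 optimal peaks and the 2625 weaker regions; points past the dotted lines have no region in that list. The optimal peaks form a diagonal band, and the weaker regions a broad cloud around median ranks of 3708 and 4751. Both sets were chosen on data of these replicates, so this contrast follows from the choice.

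Support went together with place. Of the 2123 weaker regions in both lists 52.3% lay in a start window, and of the other 502 42.4% (difference 9.90 points, Fisher's exact p = 7.04e-05). The regions in both lists also had the higher median signal (36.2 against 32.8), a higher median GC content (33.8% against 28.9%) and more often the GA repeat (10.4% against 4.18%), and fewer of them lay in introns (34.3% against 43.2%). The part of signal in the difference of place was not tested.

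The 1324 weaker summits in start windows were assigned to the nearest start whose window held them, which for 87 was not the nearest start of all, and named 1264 protein-coding genes, 6.33% of the 19973 annotated. The optimal peaks named 1026, or 5.14%. In both groups there were 63 genes, 4.98% of the weaker and 6.14% of the optimal genes, shares close to those of all genes, and 1201 genes had a weaker region and no optimal peak. When every start in the window was counted, not just the nearest, 1736 genes (8.69%) had a weaker region. The count is larger because 430 weaker summits had a further start in reach. Only 57 genes had more than 1 weaker region in their window.

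The 10 strongest weaker regions ran from signal 49.998 to 49.885, and 8 of them lay in a start window. The region at II:5874049-5874388, 605 bp upstream of tex-2, ranked 10171 in replicate 1 and 848 in replicate 2. At II:6489803-6490142 the summit lay 192 bp upstream of rsp-5, which encodes an SR-family splicing factor, with snr-3, a core spliceosomal Sm protein gene, also in reach; it ranked 3198 and 1191. The region 1392 bp upstream of mvk-1, which encodes mevalonate kinase, ranked 1463 and 3243, and that 1103 bp upstream of acl-4, an acyltransferase gene, 1564 and 1758. The summit 102 bp upstream of imp-3, an intramembrane protease gene, ranked 3202 and 1520, and lay 1395 bp from an optimal peak. The region 1819 bp upstream of Y48G9A.9 ranked 1022 and 4121. The summit 151 bp upstream of sld-2, a DNA replication gene, ranked 2764 and 1522, with larp-5 also in reach.

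Even among the strongest members the ranks in the replicates were far apart for some regions and alike for others. The region near Y92H12A.2 was in a coding exon 9242 bp from that start and ranked 1116 and 7854, and that nearest C30E1.4 on X, 7887 bp away, ranked 1048 in replicate 1 and was missing from replicate 2. Among the next strongest in start windows were set-2, an H3K4 methyltransferase gene (summit 153 bp upstream, ranks 1041 and 13882), F13H8.2 (329 bp upstream, rank 940 in replicate 1 and absent from replicate 2), vhp-1, a MAP kinase phosphatase gene (1053 bp upstream, ranks 2729 and 1331), and ttr-39, a transthyretin-related gene of D-type motor neurons (80 bp upstream, ranks 1888 and 1254). Further composite matches lay near stn-2 on X (summit 574 bp upstream, pooled signal 49.3, with the synaptic gene unc-18 also in reach) and near msp-55 on IV (1567 bp away, pooled signal 49.2, 281 bp from a piRNA start).

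None of the 6 Hox genes and none of the 5 TALE partners had a weaker region in its start window, and none had an optimal peak; with 6.33% of all genes holding a weaker region, a count of 0 in lists this small is near the background. The nearest weaker summit to lin-39 itself lay 40051 bp outside the gene, in an intron, with a signal of 32.8. The nearest to ceh-13, the anterior Hox gene, was 26440 bp away, to mab-5, which acts posterior to lin-39, 9413 bp, and to egl-5, of the tail region, 46952 bp. The posterior genes php-3 and nob-1 share a nearest summit, at 15532 and 19107 bp. Among the TALE genes, unc-62, the Meis/homothorax homologue, was the exception in having a weaker summit inside the gene, at V:4505510 in a coding exon, with a signal of 36.8 and ranks of 10108 and 1377. For ceh-20 and ceh-40, PBC-class genes, the nearest lay 11392 and 27446 bp away, for ceh-60, another PBC-class gene, 12618 bp, and for psa-3, a Meis-related gene, 22308 bp.

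Genes of the tissues that LIN-39 is known to pattern were counted beside the 6.33% of all genes, and the shares of these small lists, each resting on 2 to 4 genes, lay above it, with no test. These lists and those below were chosen with earlier results of these data known, so no excess can be read from their shares. The gene egl-17 counts in both the vulval and the M lineage list. Of 37 vulval and ventral epidermal genes 4 (10.8%) had a weaker region, and 1 had an optimal peak. They were egl-17, the FGF ligand expressed in vulval cells (signal 47.5, summit in an intron just downstream of the start and 19 bp from a tRNA start, ranks 1568 and 5850), lin-26, an epidermal zinc-finger gene (41.3, 1591 bp upstream, ranks 23208 and 1132), lin-15B (41.0, 996 bp upstream, ranks 1687 and 7750) and nhr-67, a tailless-type nuclear receptor gene (33.3, 429 bp downstream, ranks 2852 and 18352). Of 36 ventral cord motor neuron genes 3 (8.33%) had one, namely ttr-39, mab-9 and twk-46. The ttr-39 summit also had the start of ttbk-5 in reach. The T-box gene mab-9 had a signal of 33.1 at 1808 bp upstream. The potassium channel gene twk-46 had 30.3 at 196 bp upstream, and its region was absent from replicate 2.

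Of 27 genes of Q neuroblast migration 3 (11.1%) had a weaker region and 2 an optimal peak. The 3 were mab-20, a semaphorin gene (40.8, 348 bp downstream), pry-1, the Axin homologue of the Wnt pathway (36.1, 359 bp upstream), and unc-40, the netrin receptor gene (30.6, 208 bp upstream, ranks 18190 and 1255). Of 21 genes of the M lineage and sex myoblasts 2 (9.52%) had one, egl-17 and egl-15, the ligand and receptor of the FGF pathway that guides these cells. The egl-15 region had a signal of 31.4, lay 1184 bp upstream and was absent from replicate 2. None of these genes had its weaker region among the top 1488 of both lists, where only 7 of all 2625 weaker regions (0.267%) were. A count of 0 among so few genes is near that share. A further start was in reach of the summits at mab-20 (Y71G12B.18) and unc-40 (npp-7).

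Among genes of differentiated tissues, 5 of 30 body-wall muscle genes (16.7%) had a weaker region and 7 an optimal peak. They were act-1, an actin gene (44.8, 419 bp upstream, ranks 12095 and 474), deb-1, the vinculin gene (43.2, 1508 bp upstream, 189 bp from an optimal peak), pat-10, a troponin C gene (37.5, 123 bp downstream, in a 5' UTR), unc-54, the major myosin heavy chain gene (32.2, 168 bp downstream), and unc-15, the paramyosin gene (30.6, 327 bp downstream, absent from replicate 2). Of 21 pan-neuronal genes 4 (19.05%) had one, against 1 with an optimal peak: snb-1, synaptobrevin (43.1, 401 bp upstream, with a composite match), ehs-1, an endocytic protein gene (36.2), unc-33, the CRMP homologue (33.2), and snt-1, synaptotagmin (30.5, 306 bp upstream, with a composite match, absent from replicate 1). None of 25 intestinal genes had one, and 1 did when every start in the window was counted. With 6.33% of all genes holding a weaker region, a count of 0 in a list this small is near the background. Further starts were in reach of the summits at pat-10 (C46H11.6), snb-1 (syx-18) and unc-33 (tsg-101).

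Of 15 protein-coding heterochronic genes, which time larval fates, 4 (26.7%) had a weaker region and 2 an optimal peak. ain-1, of the microRNA silencing complex, had a signal of 48.0 at 1897 bp upstream and 641 bp from an optimal peak, lin-41 had 32.7 at 1416 bp upstream, lin-14 had 31.3 at 990 bp upstream, and the Argonaute gene alg-2 had 31.2 at 485 bp downstream. Of 80 ribosomal protein genes 10 (12.5%) had a weaker region and 32 an optimal peak, 2 of them both. The strongest were rps-21 (48.6, 312 bp upstream), rpl-4 (47.4, 212 bp), rps-5 (42.5, 429 bp) and rpl-14 (41.5, 332 bp, with a composite match). Of 66 mitochondrial ribosomal protein genes 6 had a weaker region and 13 an optimal peak, led by mrps-17 (45.1, 58 bp upstream) and mrps-24 (40.3, 140 bp upstream). Their windows are shared with other genes, 4 starts each. The summits at rps-21 (F37C12.10), rpl-4 (B0041.8) and rps-5 (clc-9 and pigk-1) also had further starts in reach.

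The large chemoreceptor, lectin, collagen and neuropeptide families had few weaker regions. Of 1247 chemoreceptor genes 19 had one (1.52%, against 6.33% of all genes) and 4 an optimal peak. The strongest was at odr-10, the diacetyl receptor gene, with a signal of 49.4, but its summit lay 1925 bp upstream, nearer another gene's start and 74 bp from a snoRNA start. The next were srsx-26 (43.4, also nearer another gene's start), sre-23 (40.8, 111 bp from a snoRNA start) and srd-3 (37.6). Of 240 C-type lectin genes 7 had one (2.92%), led by clec-194 (42.6, 67 bp from a piRNA start) and clec-5 (37.7), and none an optimal peak. Of 156 col collagen genes 3 had one, col-85 (42.2, 33 bp from a tRNA start), col-147 (32.3) and col-98 (30.1). Of 140 neuropeptide and insulin genes 3 had one, nlp-4 (41.5, 523 bp from an optimal peak), nlp-1 (33.8) and nlp-76 (32.8). The summits at col-98 (cyp-13A11) and nlp-4 (exos-3, ndub-10 and F59C6.18) had further starts in reach.

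Among transcription factor families, 16 of 269 nuclear hormone receptor genes had a weaker region (5.95%) and 7 an optimal peak. The strongest were nhr-64 (39.5, 252 bp upstream, absent from replicate 2), nhr-48 (37.5), nhr-178 (36.6, with a composite and a TAATTA match) and nhr-49, a regulator of fat metabolism (36.4, 359 bp upstream, ranks 2440 and 2261). None of 63 ceh homeobox genes had a weaker region and 3 had an optimal peak. Of 25 hlh genes 1 had one, hlh-17 (36.99, 1495 bp upstream and 59 bp from a piRNA start), and of 72 histone genes 1, his-72, which encodes a histone H3.3 (44.0, 190 bp upstream). Further starts were in reach of the summits at his-72 (rpt-6 and Y75B8A.33) and nhr-178 (nhr-177). The lists were described by their counts beside the share of all genes, with no test.

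Weaker regions were mostly far from the optimal peaks. Their median distance to the nearest one was 17211 bp (quartiles 5612 to 41653), and 147 (5.60%) lay within 1000 bp, against 4.17% of the next lower regions. Neighbouring weaker regions were a median of 21708 bp apart, with 175 neighbouring pairs within 1000 bp that formed 154 runs of 329 regions. The longest runs had 4 regions, and there were 3 of them: near Y92H12A.2 on I (signals 30.1 to 37.3), at osm-11 on X (35.8 to 48.3) and near letm-1 and lpin-1, a lipin gene, on V (34.6 to 49.6). Regions of a run are not independent.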

How the data were processed

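The lists are headerless narrowPeak tables. Per the submitters' file notes they were made from alignments of 2 replicates and a control. For the aligner and the peak caller the sources used here give nothing. The optimal set is labelled as thresholded by IDR, a score of agreement between replicates, with no cutoff value given. The authors' signal of a region has a scale that the labels do not state. The deposited −log10 q saturates at 3.51 and was not used for ranking. Another deposited number, the summit offset in bp, placed the summit. Signals were not compared between lists. Depth is unknown, so exact 95% intervals cover the sampling of regions only.

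Places were read from Ensembl release 115 (protein-coding genes, precedence coding exon, 5' UTR, 3' UTR, other exon, intron, intergenic), and sequences from the WBcel235 RefSeq genome. Overlap meant at least 1 bp. Tests were two-sided Fisher's exact tests between region sets and exact McNemar tests between summit and flank windows, adjusted by Benjamini-Hochberg and called at 0.05. Python 3.11.15 was used (scipy 1.17.1, pandas 2.3.3, numpy 2.4.6, and statsmodels 0.14.6 for the Breslow-Day test). The code was tested on simulated data with planted differences, genes and motifs. Of 2 listed gene symbols (lin-4 and opt-2) no protein-coding match was found.

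The members and the gene lists were chosen with earlier results of these data known. Genes were named by a rule: those with the strongest weaker regions, up to 4 for each list, and each Hox and TALE gene. uri-1, osm-11, letm-1, lpin-1, unc-15, the GA-repeat windows and the noncoding, base-composition and run comparisons were added after seeing the values. Alternatives changed the signal range, replicate support, nearness to optimal peaks, start window, summit, motif window, flank, overlap and build, or left out a replicate.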

Additional observations from a re-analysis of the deposited data

How the results depend on the processing

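No paired analysis was possible because the study has 1 group, so replicates share no number across groups. Of 189 values of 29 results under the alternatives, 153 were unchanged. They kept their direction and their side of the threshold or, for counts of genes, stayed near the main count. Differences are weaker minus optimal, in points.

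The regions with signal from 40 stood closest to the optimal peaks: for coding exons the difference was 0.798 points, for chromosome IV 1.38, for piRNA starts 1.04 and for GAGAGAG −3.73. None of these differences passed the exact test there. In that range 401 genes had a weaker region. Some differences turned sign. With signal from 40 these were 5' UTR 1.25, other exons 0.0176, chromosome II 0.348 (−2.54 over all members) and TGATNNAT against flanks −0.912. With signal below 40 they were X start window −1.41 and TAGTNNAT against flanks 0.0508. TGATNNAT gave 0.124 within 200 bp, and TAGTNNAT 0.305 against flanks on the lower-coordinate side. The X start window gave −0.304 when regions near optimal peaks were left out. Chromosome IV with regions in both replicate lists gave 3.24 (adjusted p = 0.0859, Fisher's exact test). Both replicate lists held 94.1% of regions with signal from 40, 76.5% of those below, and 71.3% of all when overlap had to cover at least 50% of both regions. The cause of these shifts was not tested.

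In the single replicate lists, with replicate 1 or replicate 2 left out, chromosome IV ranged from −0.395 to 3.77, the X start window from −3.50 to −2.89, other exons from −0.0590 to 0.0836, TGATNNAT from −2.90 (adjusted p = 0.0145 in replicate 1, Fisher's exact test) to −0.0885 and TAGTNNAT from −0.123 to 2.40. The start-window, intergenic, intron, coding exon, GAGAGAG and piRNA differences kept their direction and passed the test in both. On ce10, where the same signal range was used, no chromosome changed its call. Depth is unknown, and it limits how far weak regions can be told from background.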
